A study of Drosophila melanogaster with 4 samples.

Results

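Runs of narrow Hairy peaks that follow each other closely along the Drosophila melanogaster genome were described. A narrow peak is one under 1000 bp wide on the assembled chromosome arms (X, 2L, 2R, 3L, 3R) or chromosome 4. Successive narrow peaks were linked where the start of one minus the end of the one before it, called the gap here, was 1000 bp or less, and runs of 3 or more linked peaks are called chains. The list holds 8958 peaks, of which 8099 lie on the arms and 7470 of those are narrow. Of the 7470, 1177 peaks (15.8%, 95% Clopper-Pearson interval 14.9 to 16.6) formed 339 chains, 1818 formed 909 pairs and 4475 stood alone. The members were chosen by the deposited widths and positions of the peaks, so width and spacing are given as descriptions. The score of each peak was not used in the choice.

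Hairy represses transcription and belongs to the Hairy/Enhancer of split class of basic helix-loop-helix proteins. It is the product of a primary pair-rule gene, is expressed in stripes in the early embryo, and restricts the expression of other segmentation genes with the corepressors Groucho and CtBP. Later it takes part in patterning the nervous system and sensory bristles. In ChIP-seq, chromatin fixed with formaldehyde is pulled down with an antibody, and a peak is a stretch where sequenced fragments pile up. Binding sites near each other can give separate peaks or join into 1 broad peak.

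Hairy ChIP DNA gave 2 libraries and input DNA another 2, all from 1 fly strain labelled Y cn bw sp. ChIP and input share its alleles, which are y[1] and oc[R3.2], then Gr22b[1] with Gr22d[1], cn[1], CG33964[R4.2], also bw[1] and sp[1], and further LysC[1] together with lab[R4.2], MstProx[1] as well as GstD5[1], along with Rh6[1]. The antibody was a rabbit polyclonal serum against part of the Hairy protein. The stage is labelled 0 to 8 h, whereas the collection protocol names a laying of 8 to 16 h, which leaves the age of the embryos unclear. Whole embryos were used, so cells with and without Hairy are mixed. The list of peaks is common to the whole series and carries no value per library, so the values have no replicate error and the depth is unknown. Intervals reflect counting error alone, as if neighbouring peaks were independent. Coordinates are those of Release 5, and no gene is named.

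Most chains were short. Of the 339 chains, 233 (68.7%) had 3 peaks, 69 had 4, 25 had 5, 10 had 6, 1 had 7 and 1 had 10. Chains of 4 or more thus made up 31.3% of all chains and held 40.6% of the members. A chain spanned a median of 2264 bp from its first to its last base, quartiles of 1803 and 2930 bp, a minimum of 865 bp and a maximum of 8760 bp. Its peaks covered a median of 61.9% of that span, and between 32.2 and 92.9% in single chains. Chains of 3 had a median span of 2032 bp, chains of 4 of 2845 bp, chains of 5 of 3904 bp and the 12 chains of 6 or more of 4709 bp. The peaks themselves had a median width of 369 bp, with quartiles of 266 and 554 bp, against 355 bp (260 and 516 bp) for the 6293 other narrow peaks.

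**Figure D1:**
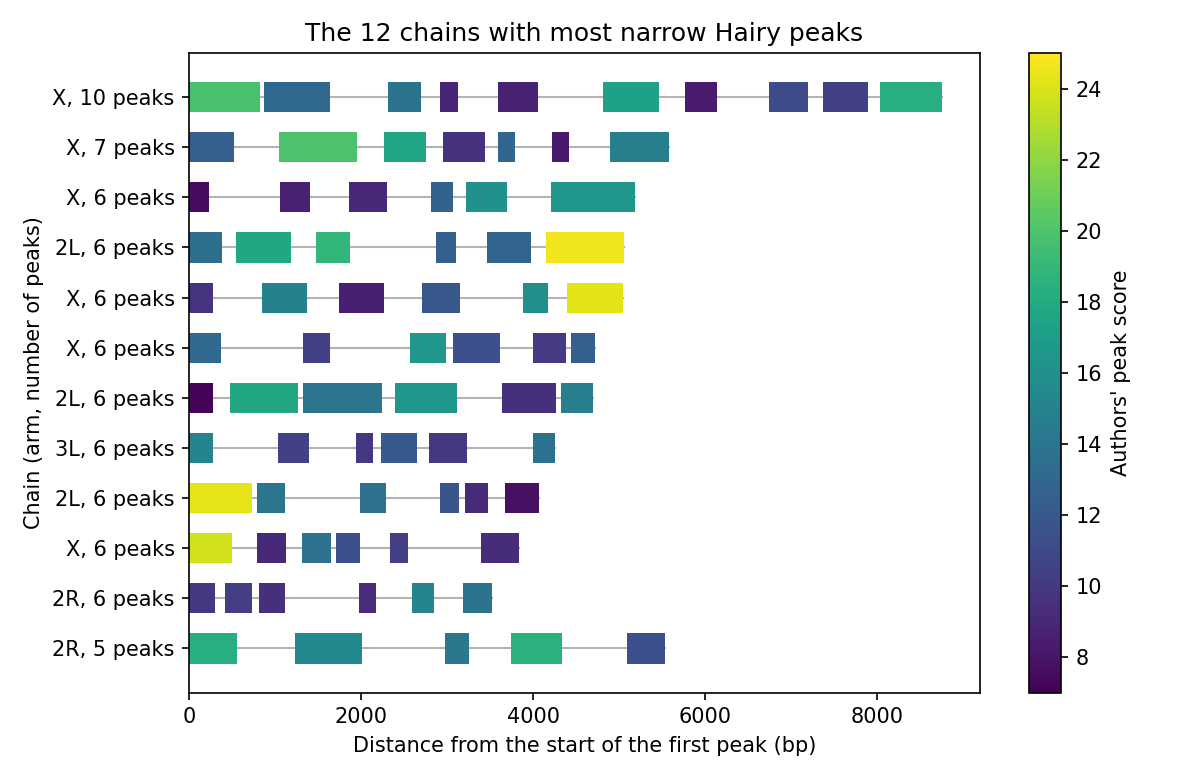
The first 12 chains named by rule, ordered by number of peaks and then span, are drawn one per row. The x axis is the distance from the start of the first peak in bp. Each bar is a peak to scale and its colour the authors' score. The title calls them those with most peaks, but the X chain of 6 peaks at 1354015 to 1357615 is not drawn. The last row is a chain of 5 on 2R. The chain of 10 peaks on the X reaches 8760 bp, and peaks of low and high score lie side by side in most rows.

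The chain with most peaks, and with the longest span, lay on the X at 20269601 to 20278360. Its 10 peaks scored, in order along the chromosome, 19.77, 12.98, 13.87, 8.91, 8.73, 17.30, 8.28, 11.11, 10.51 and 18.27. The highest scores were thus at both ends and at the sixth peak, with lower peaks between them. The gaps between them ran from 56 to 763 bp, and the peaks covered 60.9% of the 8760 bp. A broad peak of 1047 bp at 20278437 to 20279483, with a score of 17.52, began 77 bp after the chain ended. Beyond it, 91 bp on, a chain of 4 peaks ran from 20279574 to 20282328 with scores of 16.20, 11.24, 13.15 and 9.56. When broad peaks were allowed to link, these 15 peaks became 1 run of 12728 bp with 65.1% covered, the run with most peaks on the arms.

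The chain of 7 peaks was also on the X, at 4514255 to 4519835. Its scores were 12.37, 19.89, 17.64, 9.56, 12.87, 8.26 and 14.68, highest at the second peak, and no other peak of any width lay within 10 kb of it. The 10 chains of 6 peaks comprised 5 on the X, 3 on 2L and 1 each on 3L and 2R. On the X at 1367070 to 1372253, the 6 scores were 7.54, 8.67, 8.98, 12.62, 16.01 and 16.63, each higher than the one before. On 2L the chain at 849922 to 853991 ran the other way, with 24.34, 13.99, 13.64, 11.78, 9.16 and 7.77. Such ordered chains stood beside others with no order, such as 2L 6186235 to 6191295 with 13.60, 17.70, 18.85, 12.37, 12.70 and 24.62. The chain of 6 on 2L at 6976830 to 6981524 was the most filled of the 10, with 78.7% of its span covered, and the one on 3L at 4625836 to 4630088 was the least filled, with 46.4%.

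The remaining chains of 6 scored no higher than 24.19. On the X they lay at 1893558 to 1898600 (scores from 8.61 to 24.19), 14088915 to 14093636 (10.13 to 16.57), 4959052 to 4962890 (8.97 to 23.72) and 1354015 to 1357615. The chain with most peaks on 2R lay at 4881175 to 4884700, with 6 peaks that scored between 9.26 and 15.12. On 3R no chain had more than 5 peaks, and the longest of these, at 7595076 to 7599535, had scores of 18.78, 10.84, 8.27, 16.50 and 21.87, lowest at its middle peak. A chain of 5 on 2R at 10315528 to 10321065 had the third longest span of all, 5538 bp, with gaps from 497 to 957 bp.

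Gaps inside chains were mostly short. Of the 838 gaps, 147 (17.5%) were 100 bp or less, 411 (49.0%) were 300 bp or less and 563 (67.2%) were 500 bp or less. The median gap was 310 bp, with quartiles of 138 and 614 bp, and the smallest was 51 bp, which is also the smallest in the whole list. The gap within pairs was much the same, with a median of 332 bp and quartiles of 161 and 654 bp. Between midpoints, successive chain peaks were a median of 769 bp apart, with quartiles of 557 and 1061 bp. The spacing within a chain was uneven, since the longest gap of a chain was a median of 3.26 times its shortest. In 219 chains (64.6%) at least 1 gap was 200 bp or less, in 212 (62.5%) at least 1 gap was above 500 bp, and in 26 (7.67%) every gap was above 500 bp. In 65 chains (19.2%) no gap exceeded 300 bp. From this list, separate binding sites and 1 bound region divided by the peak caller cannot be told apart.

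The X chromosome held more of the chain peaks than its share of narrow peaks. On the X, 323 of 1269 narrow peaks (25.5%, interval 23.1 to 27.9) lay in 87 chains, against 854 of 6172 (13.8%, 13.0 to 14.7) in 252 chains on 2L, 2R, 3L and 3R, the large autosomal arms. The difference was 11.6 percentage points, with a 95% interval of 9.08 to 14.2 from the 2 exact intervals. The large autosomal arms were alike, with 14.0% on 2L, 14.4% on 2R, 12.7% on 3L and 14.2% on 3R. Chromosome 4 had no chain among its 29 narrow peaks, where 3 counts of 29 would be 10.3% and the exact interval reaches 11.9%. Narrow peaks were no denser on the X, with 56.6 per Mb there and 63.9 on the large autosomal arms, yet there were 3.88 chains per Mb on the X and 2.61 on those arms. Pairs took up 22.9% of narrow peaks on the X and 24.7% on 2L, 2R, 3L and 3R together.

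The X chains also had more peaks. Of the 87 chains on the X, 37 (42.5%) had more than 3 peaks, against 69 of 252 (27.4%) on the large autosomal arms. Median spans were close, 2234 bp on the X and 2264 bp on those arms. Gaps inside chains had a median of 270.5 bp on the X and 339.5 bp across the large autosomal arms.

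Along the chromosome the share in chains varied widely. Over complete 1 Mb blocks it averaged 24.4 ± 10.7% on the X (SD, 22 blocks), against 13.2 ± 7.64% on the large autosomal arms (95 blocks). The X blocks ranged from 11.1 to 47.3% and the autosomal blocks from 0 to 31.6%, so they overlapped. Above the autosomal mean were 20 of the 22 X blocks and 43 of the 95 autosomal blocks. Every X block held a chain, whereas 9 autosomal blocks held none. The X block with the highest share, 20000001 to 21000000, had 26 of its 55 narrow peaks in 6 chains, the 10-peak chain among them. The block with most chain peaks, X 19000001 to 20000000, had 38 of 118 in 10 chains. Without the block with most chain peaks of each arm, a setting chosen after seeing the data, the shares were 24.8% on the X and 13.0% across the large autosomal arms.

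**Figure D2:**
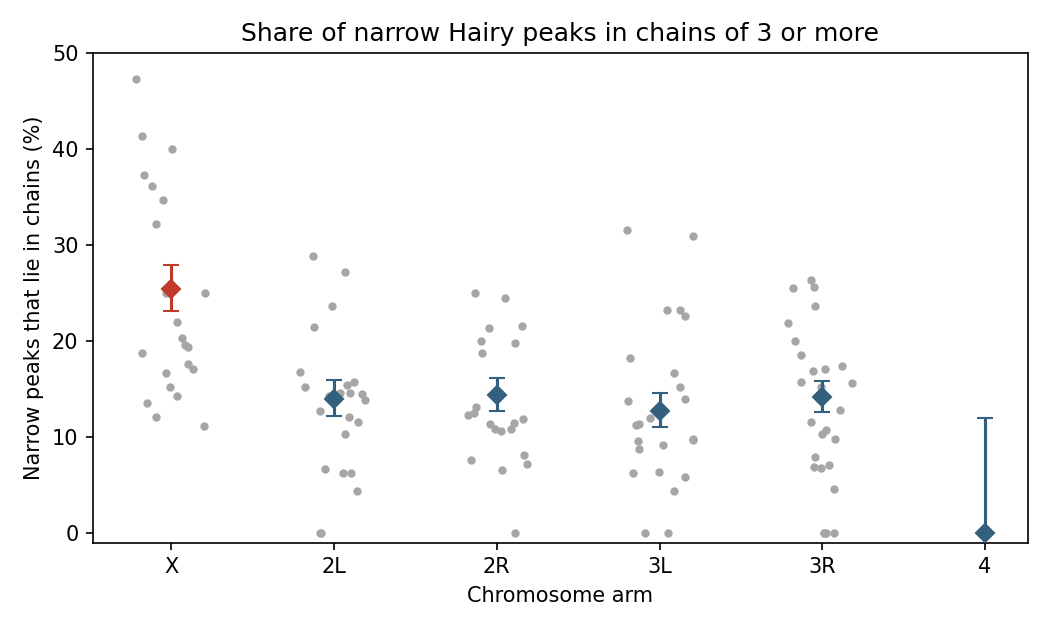
The share of narrow peaks that lie in chains (y axis, %) is plotted by chromosome arm (x axis), with diamonds for whole arms, bars for 95% Clopper-Pearson intervals and grey dots for complete 1 Mb blocks (chromosome 4 has no dots). The X diamond, at 25.5%, lies above those of the other arms, which are at or below 14.4%, while the blocks overlap.

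The gaps between all successive narrow peaks showed at which distance the X stood apart. The rule links by gaps of 1000 bp or less, so differences there are part of the chain surplus and no separate support for it. Of the 1268 gaps on the X, 21.4% (interval 19.1 to 23.7) were 500 bp or less, against 14.1% (13.3 to 15.0) of the 6168 gaps on the large autosomal arms. From there to 1000 bp the shares were 8.68% (7.18 to 10.4) on the X and 7.99% (7.33 to 8.70) on those arms. Between 1000 and 2000 bp they were 8.99% on the X and 9.66% across the large autosomal arms, with overlapping intervals. From 2000 to 5000 bp they were 17.4% on the X and 16.8% on those arms. At 5000 to 10000 bp the X share was the lower, 12.6% (10.8 to 14.6) against 16.2% (15.3 to 17.2). Above 10000 bp it was also the lower, 31.0% (28.5 to 33.6) against 35.2% (34.0 to 36.4). By bins of 100 bp, the X share was the higher in each of the 4 bins up to 400 bp, with 6.15% of X gaps and 3.65% of autosomal gaps between 100 and 200 bp. Between 300 and 400 bp the intervals already overlapped.

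**Figure D3:**
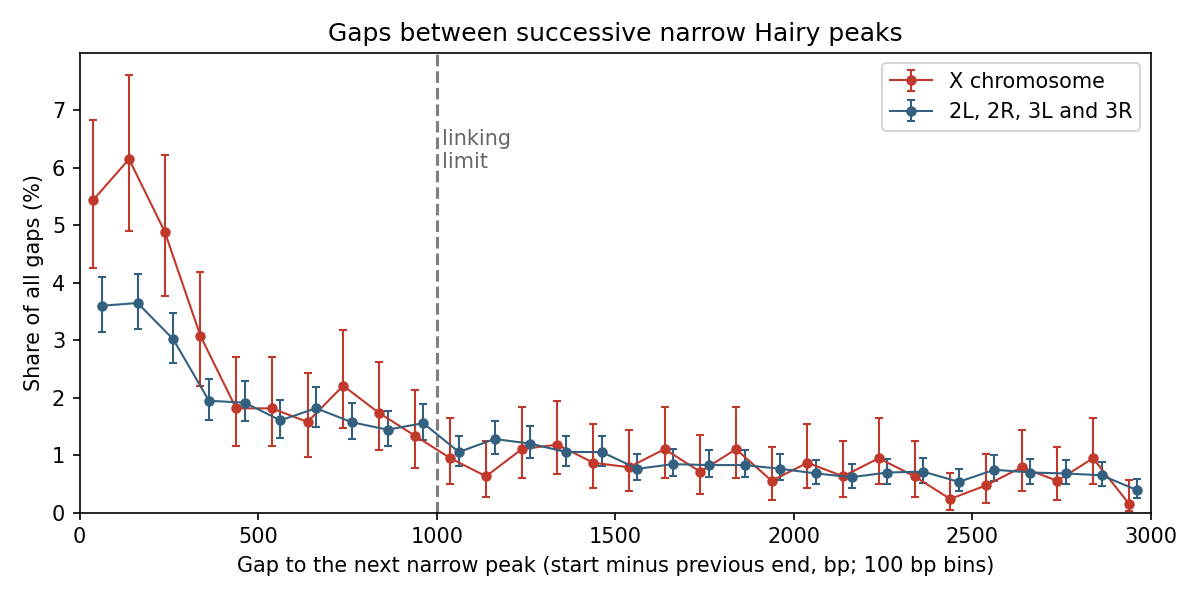
The share of all gaps between successive narrow peaks (y axis, %) is plotted in 100 bp bins of gap length (x axis, bp) for the X and for 2L, 2R, 3L and 3R together, with 95% Clopper-Pearson bars. The X points lie above the autosomal ones up to 400 bp, and beyond that the order varies between bins. The bars are apart up to 300 bp and overlap in the bins from there to the linking limit of 1000 bp.

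The surplus on the X depended on which peaks were linked. When peaks 200 bp or less apart were joined first, 12.7% of the resulting X stretches and 7.97% of those on the large autosomal arms lay in chains, a difference of 4.78 points. With a width limit of 500 bp the difference was 7.14 points. When narrow peaks under the median score of the list (13.2) were dropped and the rest linked anew, the share was 4.41% on the X and 4.24% across the large autosomal arms, a difference of 0.17 points with an interval of -1.75 to 2.67. That threshold kept 34.0% of the X narrow peaks and 43.9% of the autosomal ones. When narrow peaks at or above the median score of their own arm were kept instead, which was also chosen after seeing the data, the shares were 10.9% on the X and 5.18% across the large autosomal arms. Without new linking, the X share was the higher in each of 4 classes of narrow peaks by score, divided at the quartiles, with 23.0% on the X and 12.9% on those arms in the lowest class and 26.0% on the X and 14.4% on those arms in the highest. It was also the higher in each of 5 width classes, with the closest values at 250 to under 300 bp (19.0% on the X, interval 13.8 to 25.1, and 13.3% on those arms, 11.2 to 15.6). Scores were lower on the X, as given with the scores below, and their part in this surplus was not tested.

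Chain peaks had scores close to those of the other narrow peaks. The median score was 12.4 for the 1177 chain peaks, with quartiles of 10.1 and 16.0, against 12.3 for the 6293 other narrow peaks (9.93 and 16.0). The difference of 0.11 had a 95% interval of -0.08 to 0.48. Of the chain peaks, 178 (15.1%) reached the upper quartile of scores of the whole list, and of all 7470 narrow peaks on the arms 16.0% did. At or below the lower quartile were 327 chain peaks (27.8%), against 29.2% of all narrow peaks. Both shares of the chain peaks are thus near the background. Pairs and single peaks had median scores of 12.3 each. The share of narrow peaks found in chains was 14.8% in the lowest of the 4 score classes, 15.6% and 16.9% in the middle ones and 15.8% in the highest.

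Score rises with width in this list, and this held among the members too. Score and width had a Spearman rho of 0.60 over the 1177 chain peaks and 0.59 over the other narrow peaks, as a description across peaks that share the same libraries. Within width classes the medians stayed close. Peaks under 250 bp had a median score of 9.90 in chains and 9.85 elsewhere, and peaks of 400 to under 600 bp had 13.9 in chains and 14.1 elsewhere. The widest class, from 600 bp to the limit, had 17.2 in chains and 17.8 elsewhere, with an upper quartile of 21.3 in chains and 23.4 elsewhere. Chains took up between 14.0% (300 to under 400 bp) and 18.9% (600 bp and over) of the peaks of a width class.

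**Figure D4:**
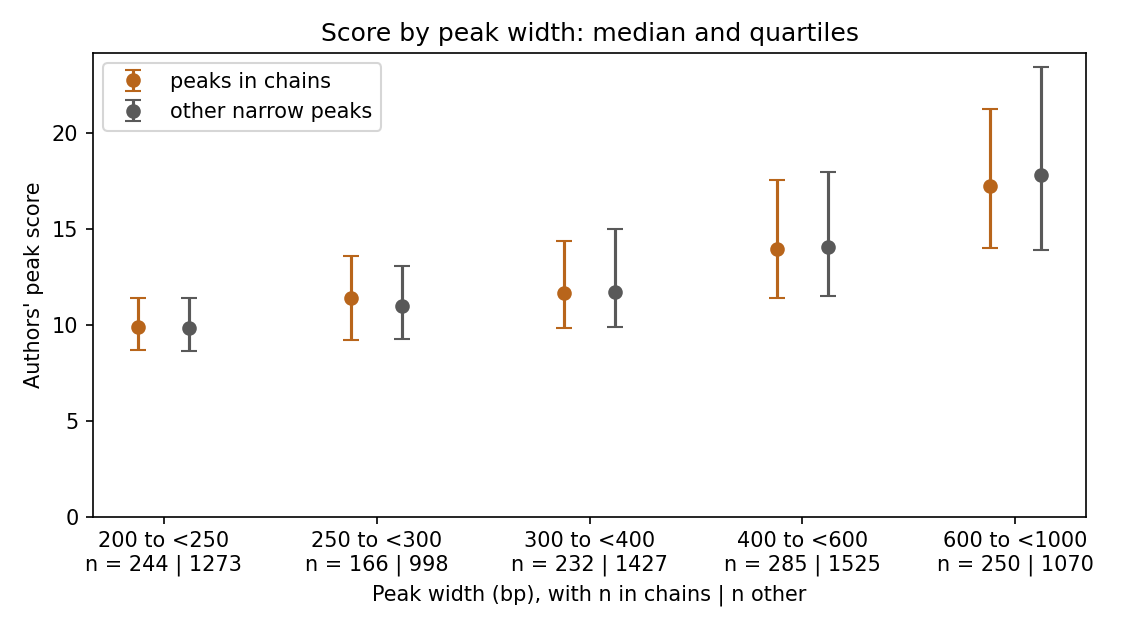
The authors' score (y axis) is plotted by class of peak width (x axis, bp) for peaks in chains and for the other narrow peaks, with points for medians, bars for quartiles and the number of peaks under each class. The medians of both sets climb from 9.90 and 9.85 in the narrowest class to 17.2 and 17.8 in the widest, and lie side by side in each class.

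Within chains, scores were lower on the X. The median was 11.9 over its 323 chain peaks, against 12.7 over the 854 chain peaks of the large autosomal arms. The upper quartile of the whole list was reached by 9.91% (interval 6.88 to 13.7) of the X chain peaks and by 17.1% (14.6 to 19.8) of the autosomal ones. The same order was found outside chains, with medians of 11.5 for the other narrow peaks of the X and 12.4 for those of the large autosomal arms.

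Peaks of 1 chain differed in score, by less than 2 times in most of the 339 chains. The highest score of a chain was a median of 1.74 times its lowest, with quartiles of 1.41 and 2.14, and in 220 of the 339 chains (64.9%) it was under 2 times. In 22 chains it was 3 times or more. The ratio was higher in chains with more peaks. Its median was 1.64 in chains of 3, 1.95 in chains of 4, 2.11 in chains of 5 and 2.40 in chains of 6 or more. Across the 838 pairs of neighbouring chain peaks the scores had a Spearman rho of only 0.08, and across chains the number of peaks and the median score had a rho of 0.04 (n = 339). Longer gaps went with slightly higher scores of the peaks beside them (rho of 0.12, n = 838). These 3 correlations are descriptions, and neighbouring values share peaks.

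Inner and end peaks of chains had close scores. The 499 inner peaks had a median score of 12.4 and a median width of 382 bp, against 12.6 and 357 bp for the 678 peaks at the ends. At 300 to under 400 bp, inner peaks had a median score of 11.7 and end peaks 11.6. In chains of 3 the highest peak was the first along the chromosome in 91 chains, the middle one in 81 and the last in 63, with ties counted at each place. Chains of 5 were few, and in 1 of the 25 the middle peak was the highest.

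Of the 90 peaks (1%) that scored highest, 45 were on the arms, 14 of those were narrow and 2 of those were in chains. Among all narrow peaks 15.8% were in chains, so 2 of 14 is near the background. The first was the chain peak with the highest score, 127.23, on the X at 3056242 to 3057044, at the start of a chain of 3. Its neighbours had scores of 14.41 and 10.61, so the highest score of this chain was 12.0 times its lowest, the highest ratio of all chains. The second, on 2L at 11816286 to 11816878, scored 103.43 and also began a chain of 3, with 9.41 and 17.25 after it, so that its highest score was 11.0 times its lowest. The next chain peak by score was at 45.41, on 3L at 18614279 to 18615066, in a chain of 3 whose other peaks scored 18.14 and 7.55. Also on 3L, the chain at 10845647 to 10849037 climbed along its 4 peaks with 9.26, 16.57, 25.73 and 45.11, and a broad peak lay 67 bp from it. On 2R, the chain at 20701126 to 20705204 had scores of 18.85, 44.57, 13.96, 9.85 and 7.03, highest at its second peak. In each of these 5 chains, 1 peak scored well above the rest. They were picked for holding the highest scoring chain peaks, so this follows largely from the choice.

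Chains and single broad peaks can occupy stretches of like length, and the broad peaks then had the higher scores. Among the 139 chains spanning 2000 to under 3000 bp, the highest peak of a chain scored a median of 18.0 (quartiles of 15.5 and 21.7), whereas the 55 broad peaks of that width scored a median of 31.1 (24.1 and 46.7). At 1000 to under 1500 bp the medians were 13.8 for 42 chains and 22.6 for 422 broad peaks, and at 1500 to under 2000 bp they were 15.4 for 78 chains and 26.2 for 137 broad peaks. At 3000 to under 4000 bp they were 20.5 for 53 chains and 69.5 for 12 broad peaks. At 4000 bp and above, 23 chains had a median of 19.9, and only 3 broad peaks were that wide. Another 4 chains spanned less than 1000 bp. The rule kept peaks of 1000 bp and more out of chains and score goes with width, so the gap between the sets follows in part from the choice of members.

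**Figure D5:**
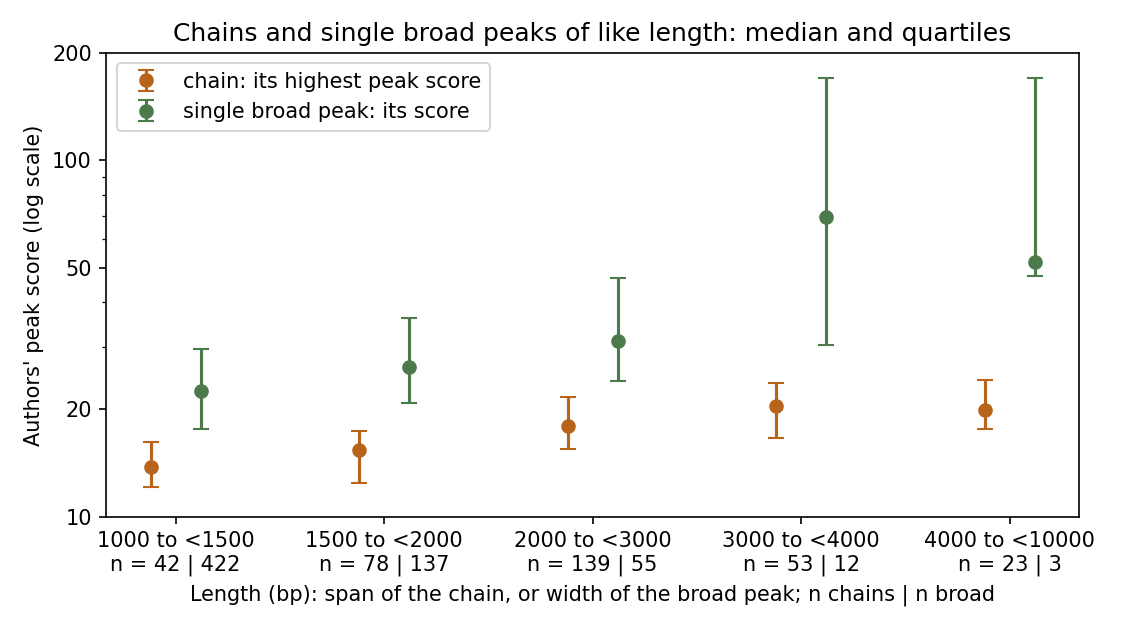
The authors' score (y axis, log scale) is plotted by length (x axis, bp), which is the span for chains and the width for single broad peaks, with points for medians and bars for quartiles. Chains are shown by the highest score among their peaks, and their medians, from 13.8 to 20.5, lie below those of the broad peaks in each class.

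In this list chains lay closer to broad peaks than single narrow peaks did. The median distance to the nearest broad peak was 33270 bp from a chain, 43293 bp from a pair and 48957 bp from a single narrow peak. A broad peak lay within 1000 bp of 29 chains (8.55%, interval 5.80 to 12.1), of 6.05% of pairs (4.59 to 7.80) and of 4.98% of single peaks (4.36 to 5.66). Within 10 kb a broad peak was found for 27.1% of chains (22.5 to 32.2) and 19.2% of single peaks (18.1 to 20.4). For the X alone these shares were 36.8% (26.7 to 47.8) and 20.7% (17.7 to 24.0). For the large autosomal arms they were 23.8% (18.7 to 29.6) and 19.1% (17.8 to 20.4), with overlapping intervals. Not counting its own members, a chain had 3.00 ± 2.32 other peaks within 10 kb of its ends (mean and SD over 339 chains), against 2.41 ± 2.12 for pairs and 2.19 ± 1.98 for single peaks, so the spread within each set exceeded the differences. No other peak lay within 10 kb of 42 chains (12.4%), against 21.8% of single peaks. On the X, 13.8% of the 87 chains (7.34 to 22.9) had a broad peak within 1000 bp, against 6.75% of the 252 chains on the large autosomal arms (3.98 to 10.6). For single narrow peaks these shares were 6.10% on the X and 4.82% on those arms. A chain other than itself lay within 10 kb of 32.2% of X chains and of 15.1% of chains on the large autosomal arms. The order was the same for pairs, with 19.3% on the X and 11.2% on those arms, and for single peaks, with 15.7% on the X and 8.33% on those arms.

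When broad peaks were allowed to link, 117 of the 1177 chain peaks (9.94%) came into a run with a broad peak. Only 1 bridge between chains formed, the one on the X described above. Among the other runs then extended by a broad peak, the 3 with most peaks were 2L 6976830 to 6984541 with 9 peaks, X 1351568 to 1357615 with 9 and X 1367070 to 1374359 with 8.

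Chain peaks were found in 272 of the 1208 windows of 100 kb on the arms (22.5%), and 11 windows held 10 or more. The fullest was X 9500001 to 9600000, where 16 of 18 peaks lay in 4 chains with a highest score of 22.08. These chains ran from 9502219 to 9505218 (4 peaks), from 9564284 to 9566369 (3), from 9571840 to 9575399 (5) and from 9587816 to 9590871 (4). The last of them had the highest median score of the 4, 21.1, with 22.08, 22.08, 12.70 and 20.04 along its peaks. In X 20200001 to 20300000, which holds the 10-peak chain, 14 of 21 peaks were in 2 chains. In 2L 6100001 to 6200000 it was 13 of 24 in 3 chains, at 6125316 to 6129699, 6186235 to 6191295 and 6195070 to 6197129.

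In X 19700001 to 19800000, 13 of 22 peaks lay in 3 chains, with 5 peaks at 19755603 to 19759381, 5 at 19762566 to 19766545 and 3 at 19796126 to 19797928. The last of these was nearly continuous, with 91.2% of its 1803 bp covered and gaps of 72 and 89 bp. In 2R 8800001 to 8900000, 12 of 28 peaks lay in 4 chains of 3, at 8800156 to 8802143, 8804061 to 8806998, 8813712 to 8816758 and 8846347 to 8847757, with a highest score of 26.74. Many peaks in a window did not mean many chain peaks. The window X 19500001 to 19600000 held 40 peaks, of which 8 were in 2 chains, whereas all 10 peaks of X 4900001 to 5000000 were in 2 chains.

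Values just inside and just outside the limits of the rule were as follows. The widest members were 996, 992 and 991 bp wide with scores of 26.74, 19.26 and 14.80, and the narrowest peaks kept out as broad were 1000, 1001 and 1001 bp wide with scores of 14.26, 21.56 and 13.18. The longest gaps inside a chain were 1000, 994 and 993 bp, and the shortest gaps that ended a run of narrow peaks were 1002, 1003 and 1004 bp. Gaps between narrow peaks numbered 114 from 900 to 1000 bp and 77 from 1000 to 1100 bp. Chain peaks of 900 to under 1000 bp numbered 36, and broad peaks of 1000 to under 1100 bp numbered 130 on the arms.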

How the data were processed

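Per the file headers, the single deposited list uses FlyBase release 5 coordinates, and each line names MACS. Per the submitters' processing notes, the tools were BWA, MACS2 and CASAVA (versions 1.7.0.2 and 1.7.0.3), and the build was BDGP5. Not given in the sources used here are their roles, the control, the threshold, any pooling of replicates and how duplicate or multiply mapping reads were treated. These steps decide where 1 region is cut into several peaks. The score is the authors' deposited value, its scale is not named, and it was compared only within the list. The authors deposited start and end as 1-based, inclusive positions. Fixation was with 1.8% formaldehyde over 15 min, per the labels' protocols.

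Narrow peaks were linked by the rule given above. Windows and blocks were counted by peak midpoint. Shares have 95% Clopper-Pearson intervals, and intervals of differences combine those of both sides. Medians have binomial order-statistic intervals for that purpose. No test over peaks was run, since 1 list has no replicates. Arm lengths of Release 5 were entered from general knowledge. No genome or annotation of Release 5 was used, so no sequence, motif or gene is given. Chains were named by rule (the 10 with most peaks, the 5 with the longest span, the 5 with the highest scoring peaks, the one with most peaks on each arm, and those in the 5 windows with most chain peaks), and other stretches were named after their values were seen. The members and comparisons were chosen with earlier results of these data known. As a check of the code only, chains were set by the same limits into simulated lists of 8517 peaks, and 1474 of 1474 were recovered. The software was scipy 1.17.1, pandas 2.3.3, numpy 2.4.6 and matplotlib 3.10.9 under Python 3.11.15.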

Additional observations from a re-analysis of the deposited data

Results flagged for a closer look

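By the same rule, 14 chains were found on sequences off the arms, which the comparisons above do not use. They are given because these sequences were otherwise left unanalysed. They held 46 of 835 narrow peaks (5.51%, Clopper-Pearson interval 4.06 to 7.28), against 15.8% on the arms. On Uextra, which strings together unplaced sequence, 33 of 723 narrow peaks (4.56%) lay in 10 chains of up to 5 peaks, with a median score of 29.8 in chains, against 26.1 for all its narrow peaks. Neighbouring scaffolds of Uextra need not be neighbours in the genome. The heterochromatic scaffolds had 2 chains with 7 of 73 narrow peaks, U had 1 chain of 3 peaks and the mitochondrial genome had 1 chain of 3.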

How the results depend on the processing

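No paired analysis was possible because the list carries no value per library, and no replicate could be left out for the same reason. The number of chains and of their peaks follows the rule closely. Below, each setting gives the chain peaks, the chains, the share of the peaks linked that are in chains, the X share minus that of the large autosomal arms in percentage points, the median score of chain peaks minus that of the others, and the share of chains with more than 3 peaks, where these moved from 1177, 339, 15.8%, 11.6, 0.11 and 31.3%. A linking distance of 500 bp gave 583 peaks in 179 chains, 7.80%, 7.94 points, a score difference of -0.36 and 20.7%. At 2000 bp there were 2055 peaks in 563 chains and 27.5%. With no width limit the share was 18.4% of all arm peaks. A width under 500 bp gave 441 peaks in 132 chains, 8.17%, 7.14 points, -0.15 and 25.8%. Counting pairs gave 2995 peaks in 1248 runs, 40.1%, with 8.49% of runs over 3 peaks. Chains of 4 or more held 478 peaks in 106 chains, 6.40%, with 8.69 points, and their share over 3 peaks is fixed by the setting. Peaks at or above the median score gave 134 peaks in 43 chains, 4.23%, 0.17 points and 11.6%. Joining peaks 200 bp or less apart first gave 677 peaks in 182 chains, 8.71% of the joined stretches, 4.78 points, a score difference of 0.80 and 22.5%. Midpoint distances gave 662 peaks in 203 chains, 8.86%, 7.99 points, -0.48 and 21.7%. The surplus on the X thus stayed positive in all 9 planned settings, but at the median score its interval includes 0. Of the settings added after seeing the data, keeping narrow peaks at or above the median score of their own arm gave 5.68 points. Leaving out the 5 windows with most chain peaks gave 9.53, and block means gave 11.2. The score difference took both signs and stayed within 0.80. Its interval lay above 0 when peaks were joined first (0.22 to 1.27) and below 0 for midpoint distances (-0.91 to -0.07). In the other planned settings the interval of the score difference included 0. Joined stretches carry the highest score of their peaks, in chains and outside them. The cause of these changes was not tested. Depth is unknown, and its effect on which weak peaks are listed, and so on which chains are unbroken, was not tested.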
